A study of Mus musculus with 16 samples.

Results

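Splenic CD11b+ myeloid cells were compared between 4 B6 mice of the BALB/c spleen cells/CTLA4-Ig/EPO group and 4 B6 mice that received such cells and neither drug (cells alone). The mice were chosen by sample name and treatment field, and they are 8 of the 16 mice of the series, all measured for the same 734 genes. The recipients were wild-type C57BL/6 (B6) animals, and each of the 8 received 20000000 allogeneic spleen cells from BALB/c donors, which the labels describe as depleted of T cells. The treated mice also received CTLA4-Ig (150 μg on day 2) and recombinant EPO (5000 U/kg daily), and spleens were taken on day 7. The other mice of the series were 4 with the same cells and CTLA4-Ig but no EPO, and 4 naive mice that received none of these. No group received EPO without CTLA4-Ig, so the comparison measures the combined treatment against an alloimmune stimulus without either drug. Cells were injected i.p. according to the labels and i.v. according to the study's text, and the selected cells are CD11b+ in one place and CD11b+CD11c– in another. A protocol field of the labels also swaps the code letters for naive animals and for recipients of cells alone. Sample names, treatment fields and description codes all give the grouping used here, and the counts under the other reading stand with the sensitivity values.

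CTLA4-Ig is a fusion protein that binds CD80 and CD86 on antigen-presenting cells and so withholds the CD28 signal from T cells. EPO is the hormone of red cell production, and its receptor is also found on myeloid cells. CD11b, the product of *Itgam*, is carried by monocytes, many macrophages, neutrophils and eosinophils, and by some dendritic cells, NK cells and lymphocytes, so that a CD11b+ fraction of the spleen is a mixture. The spleen's own red pulp macrophages take up aged red cells and recycle iron, and the growth of red cell precursors under EPO takes place in the same compartment.

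Expression was measured on a NanoString panel of myeloid innate immunity genes, in which coloured probes are counted one molecule at a time. Every value below is a normalized log2 expression value as deposited, or a difference between such values, unless a count is named. Recovered total counts were alike, at 655838 to 827739 in the mice given CTLA4-Ig/EPO and 700091 to 843363 in the mice given cells alone, and mice of the same group correlated across genes at 0.983 or more, against 0.931 to 0.958 between the groups. The median of all genes was 6.75 ± 0.06 with CTLA4-Ig/EPO and 6.53 ± 0.04 with cells alone (SD, n = 4 each), so the deposited scale is not centred. The 10 most abundant genes held 30.3% to 33.9% of counts in the former and 36.8% to 37.8% in the latter. Replicates are separate mice by their names, and no label says whether they were housed, treated or processed apart.

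CTLA4-Ig/EPO changed 371 of 734 genes (50.5%) relative to cells alone in limma (threshold of 0.05 after Benjamini-Hochberg adjustment). The changed genes comprised 168 that rose (22.9% of the panel) and 203 that fell (27.7%). A fold change of at least 1.5 was reached by 276 of the changed genes, 135 of them higher and 141 lower, and a fold change of at least 4 by 29 that were higher and 3 that were lower. The values of the 4 treated mice lay wholly above or below those of the 4 controls in 354 genes (48.2%), above in 163 (22.2%) and below in 191 (26%). Both criteria held for 332 genes. With such shares, a gene list in which about 1 in 4 members rose and about 1 in 4 fell looks like the whole panel, and the counts below are to be read against these percentages. The division into rises and falls moved with the scale: after centring each mouse on its median, 130 genes were higher and 280 lower, and with recovered counts scaled by their totals 188 were higher and 153 lower. None of the changed genes changed its sign on another scale, and 128 rises and 151 falls were called on all 4 scales.

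**Figure D1:**
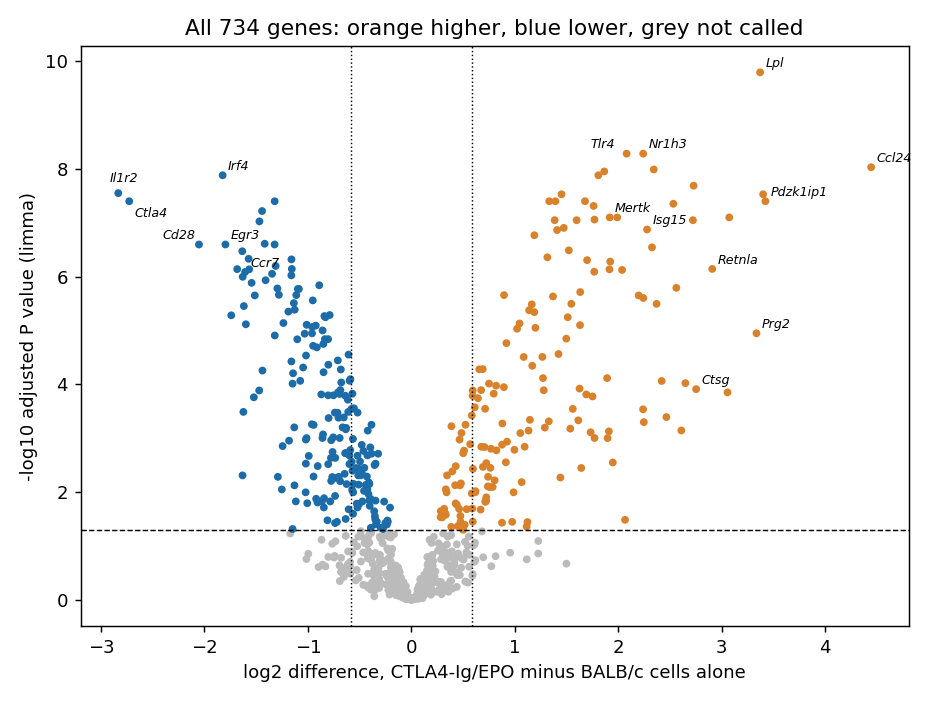
Difference between CTLA4-Ig/EPO recipients and recipients of cells alone (x axis, log2) against the −log10 of the limma adjusted *P* value (y axis), with a point per gene. The dashed line marks the threshold of 0.05 and the dotted lines a 1.5-fold change, and the 168 rises (orange) extend further from 0 than the 203 falls (blue).

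The groups between which this comparison lies were read side by side. CTLA4-Ig without EPO, set against the same 4 mice given cells alone, changed 0 of 734 genes (0%) at the adjusted threshold in limma, with 70 genes at an unadjusted *P* value below 0.05 and a smallest adjusted *P* value of 0.25. CTLA4-Ig/EPO set against CTLA4-Ig changed 375 genes (51.1%). These contrasts share mice with the combined one and are not independent of it, so they are given below as values for each gene. Of the 371 genes changed by the combined treatment, 44 were not called between CTLA4-Ig/EPO and CTLA4-Ig, and 48 genes were called there but not in the combined comparison.

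The eotaxin *Ccl24*, a chemokine that attracts eosinophils, had the largest rise of the panel. Its values were 7.78, 8.16, 8.70 and 7.74 in the mice given CTLA4-Ig/EPO and 4.00, 3.30, 3.80 and 3.50 in the mice given cells alone. The lowest treated mouse was far above the highest control, and the difference of 4.44 (standard error 0.25, limma adjusted *P* value 9.35e-09) is a 21.8-fold rise. With CTLA4-Ig and no EPO the mean was 4.06 ± 0.15 (SD, n = 4). *Lpl*, which encodes the lipase that frees fatty acids from circulating triglyceride, had the smallest adjusted *P* value of all genes. It measured 8.09, 8.22, 8.36 and 8.12 in treated mice and 4.97, 4.77, 4.92 and 4.65 in controls, a difference of 3.37 (standard error 0.13, limma adjusted *P* value 1.62e-10). Both groups were tight, and a gap of more than 3 log2 units separated them.

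The remaining large rises belonged to several kinds of gene. *Pdzk1ip1* (3.42), which encodes a small membrane protein known from haematopoietic stem cells, and *Tspan8* (3.40), a tetraspanin, rose from low levels, with 7 to 12 and 12 to 18 recovered counts in the control mice. *Enpp2* (3.07) encodes autotaxin, the enzyme that makes lysophosphatidic acid. The eosinophil granule genes *Prg2* (3.34) and *Epx* (3.06), the eotaxin receptor *Ccr3* (2.73), the secreted protein of alternative activation *Retnla* (2.91) and the granule protease *Ctsg* (2.75) completed the 10 largest rises among genes without overlap. On the other side, *Il1r2*, the decoy receptor that binds interleukin 1 without signalling, fell most. It stood at 7.19, 7.36, 6.89 and 6.53 with CTLA4-Ig/EPO and at 9.73, 9.94, 9.73 and 9.89 with cells alone, a difference of -2.83 (standard error 0.19, limma adjusted *P* value 2.83e-08). No treated mouse came near the controls. The other falls of the 10 largest were *Ctla4* (-2.73), *Cd28* (-2.05), *Irf4* (-1.82), *Egr3* (-1.80), *S1pr1* (-1.74), *Maff* (-1.68), *Fosb* (-1.63), *Pdcd1* (-1.63) and *Cd83* (-1.63).

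**Figure D2:**
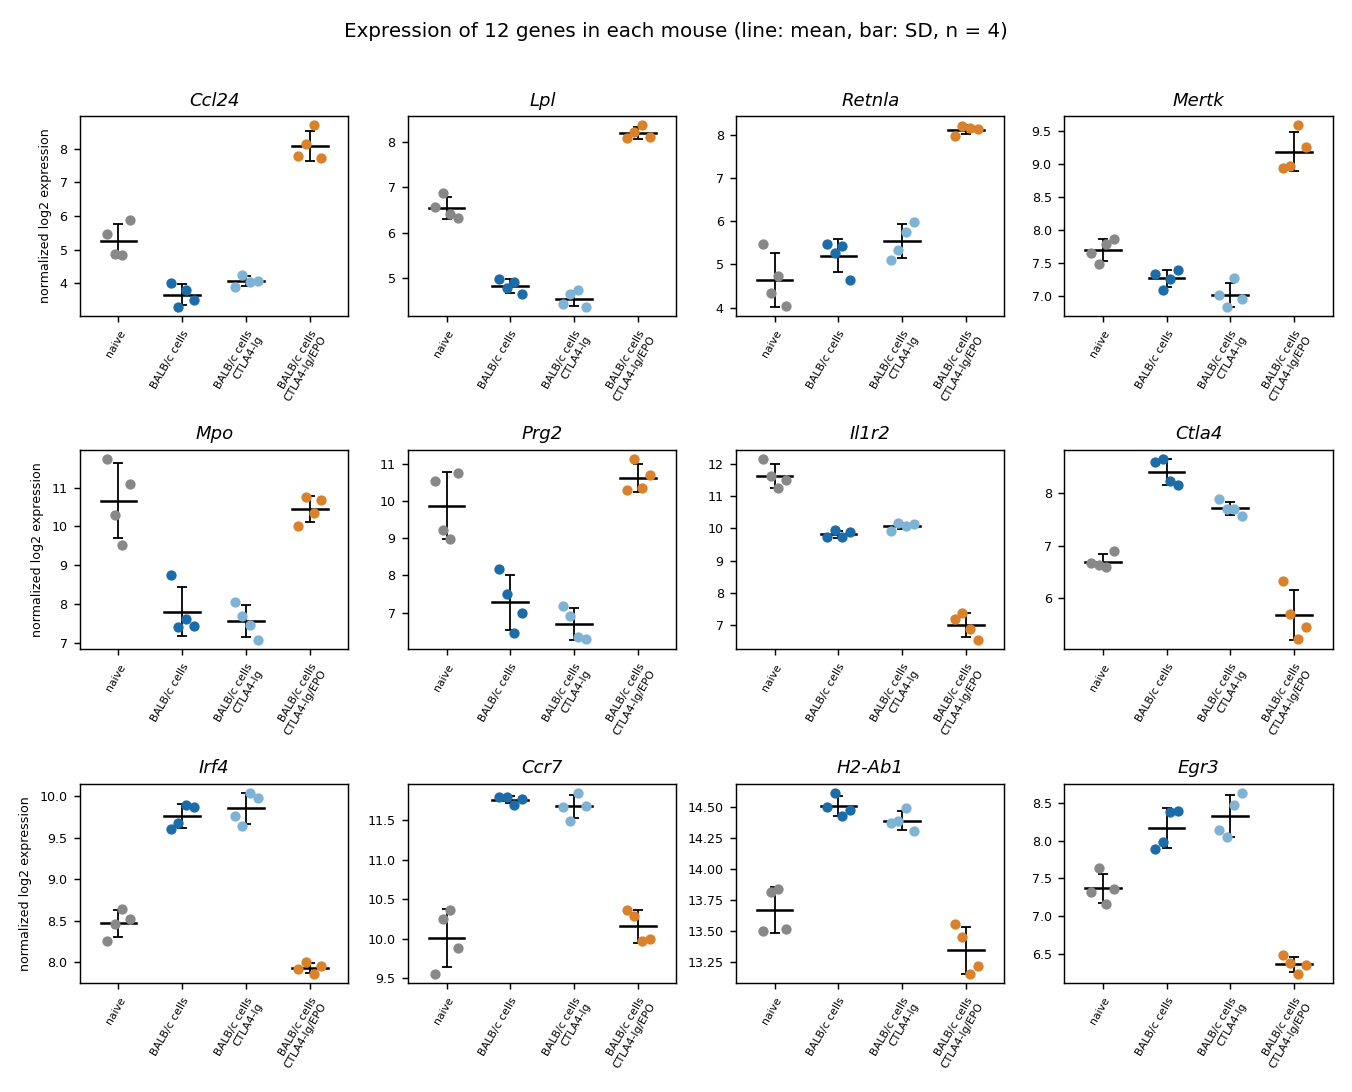
Normalized log2 expression (y axis) of 12 genes in each of the 16 mice (dots), by group (x axis), with the mean as a line and the SD as a bar (n = 4). In the mice given CTLA4-Ig/EPO, *Ccl24*, *Lpl*, *Retnla*, *Mertk*, *Mpo* and *Prg2* lie above all mice given cells alone, and *Il1r2*, *Ctla4*, *Irf4*, *Ccr7*, *H2-Ab1* and *Egr3* lie below them.

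The genes that define monocytes and macrophages were mostly higher after CTLA4-Ig/EPO. Of 11 such genes in the panel, 9 rose and 2 fell, with a median difference of 1.16, where the median of all genes was -0.07. *Itgam* itself, the gene of the marker used to select the cells, measured 9.18, 9.77, 9.48 and 9.79 in treated mice and 8.80, 8.50, 9.16 and 8.95 in controls. The lowest treated mouse was just above the highest control, and the difference was 0.71 (standard error 0.16, limma adjusted *P* value 0.00146). *Csf1r*, the receptor for the growth factor of macrophages (1.16), *Adgre1*, which encodes F4/80 (1.19), the lysosomal *Cd68* (1.38) and *Sirpa*, the receptor of the "don't eat me" signal CD47 (1.45), rose together without overlap. *Fcgr1*, the high-affinity IgG receptor, rose most, to 8.79, 8.70, 9.01 and 8.95 from 6.83, 6.52, 6.32 and 6.40. Those values are more than 1 log2 unit apart at their nearest, and the difference was 2.34 (standard error 0.14, limma adjusted *P* value 1.03e-08). *Cd14*, the coreceptor for lipopolysaccharide, fell by 0.78, and *Ly6c1*, which encodes a Ly6C antigen, by 0.33. The call for *Ly6c1* was lost in 6 of the 8 fits that each left out 1 mouse of the 2 groups, with an adjusted *P* value of up to 0.0898 in limma, and also after quantile normalization (-0.25) and with counts over their totals (-0.22). Summed on a linear scale, the 11 genes ranged from 14671 to 17926 in treated mice and from 6885 to 7820 in controls. In bulk RNA, a change in the share of a cell type and a change in its RNA per cell cannot be told apart, here and for every list that follows.

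The list written for red pulp macrophages had one of the most uniform rises. It was written with 20 genes, and *Spic*, *Hmox1*, *Slc40a1* and *Cd5l* were among those not measured. It shares *Adgre1* with the preceding list and holds a marginal zone gene, so its rise does not single out red pulp macrophages. Of 13 in the panel, 12 rose and none fell (median 1.68), and *Marco*, a scavenger receptor of the marginal zone, was the single member that did not pass (0.53, limma adjusted *P* value 0.131). Without mouse 3 of the treated group its difference was 0.75 (limma adjusted *P* value 0.0312). With counts over their totals, all 13 genes were called higher. *Siglec1*, the sialic acid receptor CD169, measured 6.38, 6.07, 7.17 and 7.11 with CTLA4-Ig/EPO and 4.30, 4.36, 4.09 and 4.50 with cells alone, a difference of 2.37. *Hpgd*, which breaks down prostaglandins, rose by 1.86 from 9.90 ± 0.14 to 11.76 ± 0.09 (SD, n = 4 each). The adhesion molecule *Vcam1* (1.47), the haemoglobin scavenger receptor *Cd163* (1.55), the mannose receptor *Mrc1* (1.41) and *Il18* (1.76) were all without overlap between groups. The summed level of the 13 genes was 31306 to 41197 in treated mice and 10621 to 12466 in controls, while the mice given CTLA4-Ig without EPO had 9673 to 10745.

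Genes for the recognition and uptake of apoptotic cells rose in 8 of 12 cases and fell in 2, with a median of 1.72. This list shares *C1qa*, *C1qb*, *C1qc*, *Mertk* and *Timd4* with the red pulp macrophage list, so the 2 counts are not separate. Other lists also share genes, among them *Fcgr1*, *Irf4*, *Il1r2* and *Ccr7*, and their counts are not separate either. *Mertk*, the receptor kinase that binds dying cells through bridging proteins, measured 8.94, 8.97, 9.58 and 9.26 in treated mice and 7.34, 7.09, 7.26 and 7.39 in controls. All treated mice exceeded all controls by at least 1.5 log2 units, and the difference was 1.92 (standard error 0.15, limma adjusted *P* value 7.99e-08). Its bridging ligand protein S, encoded by *Pros1*, rose by 2.33. The 3 chains of complement C1q, which coat debris, rose by similar amounts, *C1qa* by 1.77, *C1qb* by 1.68 and *C1qc* by 1.77. The phosphatidylserine receptor *Timd4* moved less (0.59). A relative of it, *Havcr1*, fell by 1.13 from a low level, and the crosslinking enzyme *Tgm2* fell by 0.35, which was not called with counts over their totals (-0.23, limma adjusted *P* value 0.218). *Cd36* and *Stab1*, further receptors of this kind, did not pass the test.

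The nuclear receptors that sense lipid in macrophages rose along with their lipid-handling enzymes. *Nr1h3*, which encodes the oxysterol receptor LXRα, measured 9.0, 8.84, 9.25 and 8.92 with CTLA4-Ig/EPO and 6.75, 6.56, 6.67 and 7.06 with cells alone. The groups lay almost 2 log2 units apart, with a difference of 2.24 (standard error 0.12, limma adjusted *P* value 5.24e-09). *Pparg*, the receptor PPARγ, rose by 2.04. In the list of lipid handling genes, 10 of 16 rose and 1 fell (median 1.02). Beside *Lpl* they included the fatty acid carrier *Fabp4* (1.99), the lysosomal lipase *Lipa* (1.39) and apolipoprotein E (*Apoe*, 0.90). Among the prostaglandin genes, *Ptgs1*, the constitutive cyclooxygenase, rose by 2.72 and the prostaglandin D synthase *Hpgds* by 1.70, whereas the inducible cyclooxygenase *Ptgs2* fell by 0.69.

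Genes tied to alternative activation moved in both directions, with 10 of 19 higher and 6 lower (median 0.40). *Retnla* measured 7.97, 8.21, 8.15 and 8.12 in treated mice against 5.48, 5.27, 5.43 and 4.65 in controls, a difference of 2.91 (standard error 0.28, limma adjusted *P* value 7.22e-07). *Fn1*, fibronectin, rose by 2.56, and the chitinase-like genes *Chil3* and *Chil4* by 1.77 and 1.73. The 4 members with the largest falls were *Irf4*, *Il10*, *Ccl22* and *Egr2*, and the call of *Egr2* was lost without control mouse 4 (-0.72, limma adjusted *P* value 0.0511). *Irf4*, a transcription factor of alternative activation that dendritic cells and lymphocytes also express, was very even within groups, at 7.92, 8.0, 7.86 and 7.95 with CTLA4-Ig/EPO and 9.60, 9.68, 9.89 and 9.86 with cells alone. All treated mice were below all controls, and the difference was -1.82 (standard error 0.11, limma adjusted *P* value 1.32e-08). *Il10*, an inhibitory cytokine, differed by -1.29 at 8 to 27 counts in treated mice and 30 to 42 in controls, and *Tgfb1*, another inhibitory cytokine, by 0.40 in the opposite direction. The call of *Tgfb1* was lost after centring (0.18, limma adjusted *P* value 0.209).

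**Figure D3:**
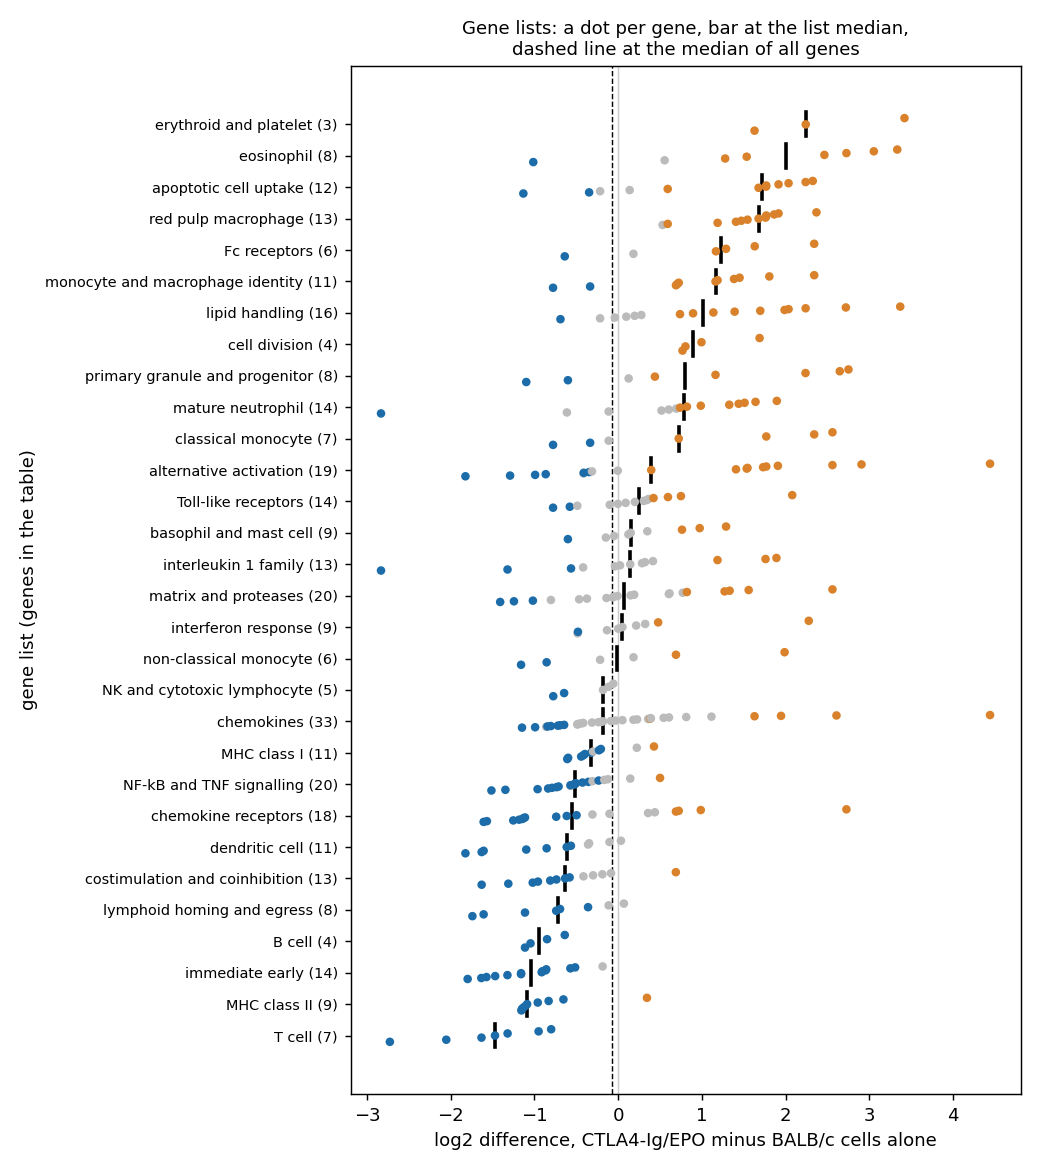
Difference between CTLA4-Ig/EPO recipients and recipients of cells alone (x axis, log2) for each gene (dots) of 30 lists (y axis, with the number of genes measured), where orange is higher, blue is lower and grey did not pass the test. Black bars are list medians, which run from 2.24 (erythroid and platelet) to -1.47 (T cell), and the dashed line is the median of all genes at -0.07.

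Genes of granulocytes moved in both directions, with more rises than falls. Of 8 genes of primary granules and myeloid progenitors, 5 rose and 2 fell (median 0.80). *Csf1r*, given above with the macrophage genes, is among the 5 rises. *Mpo*, the peroxidase of primary granules, measured 10.02, 10.76, 10.34 and 10.67 in treated mice and 8.74, 7.41, 7.62 and 7.44 in controls. One control lay well above the other controls yet below all treated mice, and the difference was 2.65 (standard error 0.42, limma adjusted *P* value 9.51e-05). *Elane* (2.24) and *Ctsg* (2.75) of the same granules followed, while the progenitor receptors *Flt3* (-1.10) and *Kit* (-0.60) fell, the latter with overlapping groups. Among 14 genes of mature neutrophils, 8 rose and 1, *Il1r2*, fell (median 0.78), while 5 did not pass. The falls numbered 3 after centring and 2 after quantile normalization, and the rises 11 with counts over their totals. *S100a9*, the calgranulin that is among the most counted genes, measured 14.29, 15.46, 14.47 and 14.75 against 14.12, 12.71, 13.17 and 12.40. The lowest treated mouse was only slightly above the highest control, and the difference of 1.64 had a standard error of 0.41 (limma adjusted *P* value 0.00357). *Camp* rose by 1.90, *Fpr1* by 1.51 and *S100a8* by 1.44, the last with overlap. *Ly6g*, the defining surface marker of mature neutrophils, did not pass (0.69, limma adjusted *P* value 0.162), but was called with counts over their totals (0.81, limma adjusted *P* value 0.0326). The summed level of the 14 genes was 40642 to 89793 with CTLA4-Ig/EPO and 15874 to 39083 with cells alone. *S100a9* and *S100a8*, which are among the 5 most counted genes of the panel, weigh most in this sum.

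Eosinophil genes rose in 6 of 8 cases, with a median of 2.00. *Prg2*, which encodes major basic protein, measured 10.30, 11.12, 10.35 and 10.68 in treated mice and 8.18, 7.50, 6.46 and 6.98 in controls, with a difference of 3.34 (standard error 0.42, limma adjusted *P* value 1.13e-05). The controls spread over more than 1 log2 unit, and the highest of them stayed well below the treated mice. *Ear6*, an eosinophil ribonuclease, rose by 2.46. *Siglecf*, the defining surface receptor of mouse eosinophils, had a difference of 0.56 that did not pass (limma adjusted *P* value 0.0671) but did so without mouse 3 of either group (0.0257 and 0.0291), and *Il5ra*, the interleukin 5 receptor, fell by 1.01. With counts over their totals, 7 of the 8 genes were called higher, *Siglecf* among them. The summed level of the list was 2472 to 3511 with CTLA4-Ig/EPO and 356 to 634 with cells alone. The share of eosinophils or neutrophils in the selected cells was not measured, and its part in the rise of *Ccl24*, *Alox15* or *Chil3* was not tested.

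Of 9 basophil and mast cell genes, 3 rose and 1 fell (median 0.15), and after centring or quantile normalization 2 rose, *Ms4a2* being the call that was lost. *Fcer1a*, the alpha chain of the IgE receptor, rose by 1.29, its beta chain *Ms4a2* by 0.97 (a call lost in 6 of the 8 leave-one-mouse-out fits, with a limma adjusted *P* value of up to 0.119) and carboxypeptidase A3 (*Cpa3*) by 0.76, and the mast cell protease gene *Cma1* differed by 0.12. Of the genes of red cell precursors and platelets, 3 were measured and all 3 rose: *Pdzk1ip1*, the erythroid transcription factor *Gata1* (2.24) and platelet factor 4 (*Pf4*, 1.63). *Gata1* is also expressed in eosinophils and mast cells. It measured 5.64, 5.78, 6.02 and 6.10 in treated mice and 3.94, 3.6, 3.80 and 3.23 in controls. All 4 cell division genes rose, the survivin gene *Birc5* by 1.69, *Ccnb2* by 1.00, *Top2a* by 0.80 and *Cdc20* by 0.77, and their summed level was 1012 to 1061 with CTLA4-Ig/EPO and 453 to 667 with cells alone.

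T and B cell genes were lower after CTLA4-Ig/EPO. All 7 T cell genes of the panel fell, with a median of -1.47, the lowest of any list. *Ctla4*, the inhibitory receptor of T cells that is high on regulatory T cells, measured 6.33, 5.70, 5.23 and 5.44 in treated mice and 8.58, 8.64, 8.23 and 8.15 in controls, a difference of -2.73 (standard error 0.19, limma adjusted *P* value 4e-08). It was 7.71 ± 0.13 (SD, n = 4) with CTLA4-Ig alone, a difference of -0.69 from cells alone whose adjusted *P* value in limma was 0.25. *Cd28* measured 7.09, 6.84, 6.67 and 6.67 against 8.75, 9.18, 8.70 and 8.85. Its groups lay more than 1 log2 unit apart. *Icos* (-1.32), the CD40 ligand gene *Cd40lg* (-1.47), the receptor chain *Cd247* (-0.95) and the costimulatory receptor *Cd27* (-0.80) fell without overlap. *Pdcd1*, which encodes PD-1, differed by -1.63 at only 6 to 12 counts in treated mice.

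The 4 B cell genes fell too (median -0.95), with *Ms4a1*, which encodes CD20, at 10.77, 10.71, 10.20 and 10.29 against 11.47, 11.30, 11.39 and 11.19, and *Cxcr5*, the follicular homing receptor, lower by 1.11, the inhibitory receptor *Btla* by 1.05 and *Fcer2a*, which encodes CD23, by 0.64. Of the 5 NK and cytotoxic lymphocyte genes, 2 fell (median -0.18). *Gzma*, *Nkg7* and *Klrk1* had differences of -0.18, -0.06 and -0.11 that did not pass, and interferon gamma (*Ifng*, -0.78) and *Ccl5* (-0.65, with overlap) fell. Set against CTLA4-Ig, all 5 were lower with CTLA4-Ig/EPO (median -0.79), *Gzma* by 0.85 (limma adjusted *P* value 0.00191). Their median difference between CTLA4-Ig and cells alone was 0.50, and none of the 5 was called there. Summed levels were 432 to 668 with CTLA4-Ig/EPO and 1456 to 1828 with cells alone for the T cell list, and 1653 to 2349 and 3497 to 3986 for the B cell list. No gene of either list was at or below 3 recovered counts in all 4 mice of either group. RNA of T and B cell genes was thus measured in both groups, in amounts that moved with the treatment, and its part in the falls described next was not tested.

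Dendritic cell genes fell in 7 of 11 cases and rose in none (median -0.61). *Ccr7*, the receptor that guides dendritic cells and naive lymphocytes into T cell zones, measured 9.97 to 10.37 in the 4 treated mice and 11.80, 11.80, 11.70 and 11.77 in controls. The controls differed by only 0.1 among themselves, and the fall was -1.61 (standard error 0.16, limma adjusted *P* value 8.21e-07). The maturation marker *Cd83* (-1.63), *Flt3* (-1.10) and *Itgax*, which encodes CD11c (-0.85), also fell. The genes of conventional type 1 dendritic cells, *Xcr1* (-0.10), *Clec9a* (-0.35) and *Batf3* (0.03), did not pass the test, though *Clec9a* was called after centring (-0.56, limma adjusted *P* value 0.0416). The summed level of the 11 genes was 3770 to 4618 with CTLA4-Ig/EPO and 10031 to 10719 with cells alone.

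MHC class II molecules present peptides from engulfed antigen to CD4+ T cells, and 8 of the 9 class II genes fell, with a median of -1.09. *H2-Ab1*, the I-A beta chain, measured 13.55, 13.46, 13.16 and 13.22 in treated mice and 14.50, 14.61, 14.43 and 14.48 in controls, a difference of -1.16 (standard error 0.11, limma adjusted *P* value 7.22e-07). *H2-Eb1* fell by 1.15, the invariant chain *Cd74* by 1.13 and *H2-Aa*, the I-A alpha chain, by 0.96. After quantile normalization the fall of *Cd74* was -0.45 and its call was lost (limma adjusted *P* value 0.128). The peptide loaders *H2-DMa* (-0.83), *H2-DMb1* (-0.65) and *H2-DMb2* (-1.10) and their inhibitor *H2-Ob* (-1.09) went the same way. The lysosomal protease *Ctss*, which trims the invariant chain, was higher by 0.34, a call that was lost after centring (0.13, limma adjusted *P* value 0.226). The summed level was 64543 to 74189 with CTLA4-Ig/EPO and 132290 to 144806 with cells alone, and 123571 to 148744 with CTLA4-Ig alone.

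Class II promoters are known for a Y box, an inverted CCAAT element. The letters CTGATTGG, on either strand, were found in the RefSeq promoter windows (GRCm38.p6, 250 bases before the start) of 2 of the 7 class II members with an entry, against 4.43% of all genes. Those windows are shown because these genes fell together, as the 150 bases before the start with the match in capitals. *H2-Aa* lies at chr17:34287824-34287973 on the minus strand and *H2-Eb1* at chr17:34305717-34305866 on the plus strand.
H2-Aa: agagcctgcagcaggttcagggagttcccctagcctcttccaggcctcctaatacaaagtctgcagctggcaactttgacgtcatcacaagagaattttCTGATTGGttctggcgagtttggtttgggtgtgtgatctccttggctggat
H2-Eb1: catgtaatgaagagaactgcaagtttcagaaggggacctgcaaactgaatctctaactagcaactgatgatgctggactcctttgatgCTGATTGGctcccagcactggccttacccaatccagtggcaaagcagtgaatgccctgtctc

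MHC class I genes and their peptide supply moved less. Of 11, 8 fell and 1 rose (median -0.32), with *Tap1* (-0.61) and *Tap2* (-0.60), the peptide transporter, first, followed by the immunoproteasome subunit *Psmb9* (-0.44), *H2-M3* (-0.41), *H2-K1* (-0.40) and *H2-D1* (-0.23). The call of *H2-D1* was lost in 5 of the 8 leave-one-mouse-out fits, with an adjusted *P* value of up to 0.108 in limma. *Cd1d1*, which presents lipids, rose by 0.43, and after centring this call was lost (0.22, limma adjusted *P* value 0.118). After quantile normalization 6 of the 11 genes were called lower, and *H2-K1* was among those that lost the call (-0.23, limma adjusted *P* value 0.115). With counts scaled by their totals, 2 of the 8 falls were still called. Among 13 genes of costimulation and coinhibition, 8 fell and 1 rose (median -0.63). *Cd274*, the gene of the inhibitory ligand PD-L1, measured 9.12, 9.16, 8.65 and 8.71 with CTLA4-Ig/EPO and 10.24, 10.28, 10.14 and 10.23 with cells alone. All treated mice were lower by about 1 log2 unit or more, and the difference was -1.31 (standard error 0.12, limma adjusted *P* value 6.36e-07). Of the ligands that CTLA4-Ig binds, *Cd80* fell by 0.58 and *Cd86* differed by -0.08 (standard error 0.09, limma adjusted *P* value 0.484), and by -0.30 after centring (limma adjusted *P* value 0.0483). *Tnfsf4*, the OX40 ligand (-1.02), *Havcr2*, which encodes TIM-3 (-0.96), and the ICOS ligand *Icosl* (-0.63) fell, and the inhibitory receptor VISTA (*Vsir*) was the 1 member that rose (0.69).

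Immediate early genes, which are transcribed within minutes of receptor stimulation, were lower in 13 of 14 cases (median -1.04). *Egr3* measured 6.49, 6.38, 6.24 and 6.36 in treated mice and 7.89, 7.99, 8.38 and 8.40 in controls, a difference of -1.80 (standard error 0.16, limma adjusted *P* value 2.54e-07). *Fosb* fell by 1.63, *Nr4a2* by 1.57, the early activation antigen *Cd69* by 1.47, *Atf3* by 1.32, *Nr4a1* by 1.16 and *Jun* by 0.91, and none of these overlapped between groups. *Ier3* (-0.19) was the member that did not pass, and it did so after centring (-0.40, limma adjusted *P* value 0.00516). The summed level was 24272 to 29755 with CTLA4-Ig/EPO, 47073 to 53244 with cells alone and 45984 to 53665 with CTLA4-Ig alone.

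Several immediate early genes are known to answer to CREB and ATF proteins, whose cAMP response element has the core TGACG. On either strand that core was in the promoter windows of 7 of 10 members with an entry (*Atf3*, *Dusp1*, *Egr2*, *Fosb*, *Klf4*, *Nr4a1* and *Nr4a2*), against 19.8% of all genes, and a core next to its reverse complement CGTCA can share letters with it. The core is not confined to this list, since the *H2-Aa* window shown above also holds it, in lower case there. *Nr4a2* and *Dusp1*, which fell by 1.57 and 0.57, are shown with each match in capitals, at chr2:57124004-57124153 and chr17:26508473-26508622, both on the minus strand of GRCm38.p6.
Nr4a2: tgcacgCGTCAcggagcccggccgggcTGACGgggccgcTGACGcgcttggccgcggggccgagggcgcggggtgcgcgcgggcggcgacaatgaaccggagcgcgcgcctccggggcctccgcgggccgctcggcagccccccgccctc
Dusp1: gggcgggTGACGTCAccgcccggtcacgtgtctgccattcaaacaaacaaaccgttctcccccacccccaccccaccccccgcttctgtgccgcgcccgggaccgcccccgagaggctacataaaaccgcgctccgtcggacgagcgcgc

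Genes of NF-κB and TNF signalling fell in 14 of 20 cases and rose in 1 (median -0.52). *Tnfaip3*, the feedback inhibitor A20, measured 11.33, 11.31, 10.75 and 10.75 with CTLA4-Ig/EPO and 12.42, 12.70, 12.75 and 12.33 with cells alone, a difference of -1.51. Its treated values formed a higher and a lower pair, both below the controls. The adaptor protease *Malt1* (-1.35), the inhibitor *Nfkbia* (-0.96), *Traf1* (-0.84) and *Tnf* (-0.74) fell, and *Tnfrsf1b*, the second TNF receptor, rose by 0.50. In the interleukin 1 family, 3 of 13 genes rose and 3 fell. *Il1a* rose by 1.19, *Il18* by 1.76 and the interleukin 33 receptor *Il1rl1* by 1.89, while *Il1b* fell by 0.56, *Nlrp3*, the inflammasome sensor, by 1.32, and *Il1r2* most of all. *Nlrp3* was nearly identical in the treated mice, at 7.88, 7.91, 7.84 and 7.88, against 9.08, 9.18, 9.10 and 9.43.

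Sensors of microbes and interferon genes included rises and falls. *Tlr4*, the lipopolysaccharide receptor, rose to 8.49, 8.62, 8.81 and 8.71 from 6.48, 6.57, 6.73 and 6.54, a difference of 2.08 (standard error 0.11, limma adjusted *P* value 5.24e-09). Its coreceptor *Cd14* fell, as given above. The list of Toll-like receptors held 12 receptor genes, the adaptor *Myd88* and *Cd14*. Of these 14, 4 rose and 2 fell (median 0.25), and 4 fell after quantile normalization, with *Tlr8* (0.75), *Tlr13* (0.60) and *Tlr2* (0.42, but 0.21 and not called after centring) higher and *Tlr9* (-0.58) lower beside these. *Isg15*, a ubiquitin-like product of interferon signalling, measured 9.17, 8.56, 9.02 and 9.11 in treated mice and 7.18, 6.54, 6.56 and 6.46 in controls, a difference of 2.28 (standard error 0.19). Of the 9 interferon response genes, 2 rose and 1 fell (median 0.05), with 3 falls after centring. *Irf7* rose by 0.48, *Irf1* fell by 0.48, and the antiviral *Mx1* differed by -0.13 without passing the test. These smaller calls moved with the scale, since *Irf7* was not called after centring (0.27, limma adjusted *P* value 0.142) nor *Irf1* with counts over their totals (-0.37, 0.0712), while *Mx1* was called after centring (-0.35, 0.0373). Fc receptors rose in 4 of 6 cases, with *Fcgr3* at 1.63 and *Fcgr4* at 1.17, whereas the inhibitory receptor *Fcgr2b* did not pass (0.18) and the IgE receptor gene *Fcer2a* fell (-0.64).

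Chemokines showed no common direction, with 5 of 33 higher and 7 lower (median -0.18). After *Ccl24*, the largest rises were the monocyte attractant *Ccl12* (2.61) and the B cell attractant *Cxcl13* (1.95), which varied among treated mice from 6.01 to 8.32. *Ccl3* (-0.69), *Cxcl16* (-0.80), *Ccl4* (-0.84) and *Ccl22* (-0.99) fell. Chemokine receptors were lower in 10 of 18 cases and higher in 4 (median -0.56). The 4 that rose, *Ccr3*, *Cxcr2* (0.99), *Ccr2* (0.72) and *Cx3cr1* (0.69), are known from eosinophils, neutrophils and monocytes. Those that fell most, *Ccr7*, *Ccr6* (-1.57), *Ccr4* (-1.25) and *Ccr8* (-1.18), are known from lymphocytes and dendritic cells. Of 8 genes of lymphoid homing and egress, 6 fell (median -0.72), led by *S1pr1*, the sphingosine phosphate receptor through which lymphocytes leave lymphoid organs, at 5.94, 6.48, 6.39 and 6.64 against 7.87, 7.91, 8.37 and 8.28. *Cxcr4*, the receptor that retains cells in bone marrow, fell by 0.74.

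Matrix and protease genes were mixed, with 5 of 20 higher and 3 lower (median 0.07). Lysosomal cathepsins D (*Ctsd*, 1.33) and L (*Ctsl*, 1.27) rose, as did the collagenase *Mmp13* (1.56), while the elastase *Mmp12* (-1.24), the urokinase receptor *Plaur* (-1.02) and the angiogenic factor *Vegfa* (-1.41) fell. Classical monocyte genes rose in 4 of 7 cases and fell in 2 (median 0.72), where the falls were *Cd14* and *Ly6c1* and numbered 3 after centring, 1 after quantile normalization or with counts over their totals, and as few as 1 when single mice were left out, and non-classical monocyte genes in 2 of 6 each way (median -0.02). The median of all genes was -0.07 as deposited, -0.28 after centring, -0.11 after quantile normalization and 0.05 with counts over their totals, and the red pulp macrophage, eosinophil and apoptotic cell uptake lists kept medians of at least 1.47, 1.79 and 1.51 on each of them. The medians of the basophil and mast cell, non-classical monocyte, interferon response, interleukin 1 family and matrix lists changed sign between these scales. Those of the red pulp macrophage and apoptotic cell uptake lists are not independent, as these lists share genes.

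**Figure D4:**
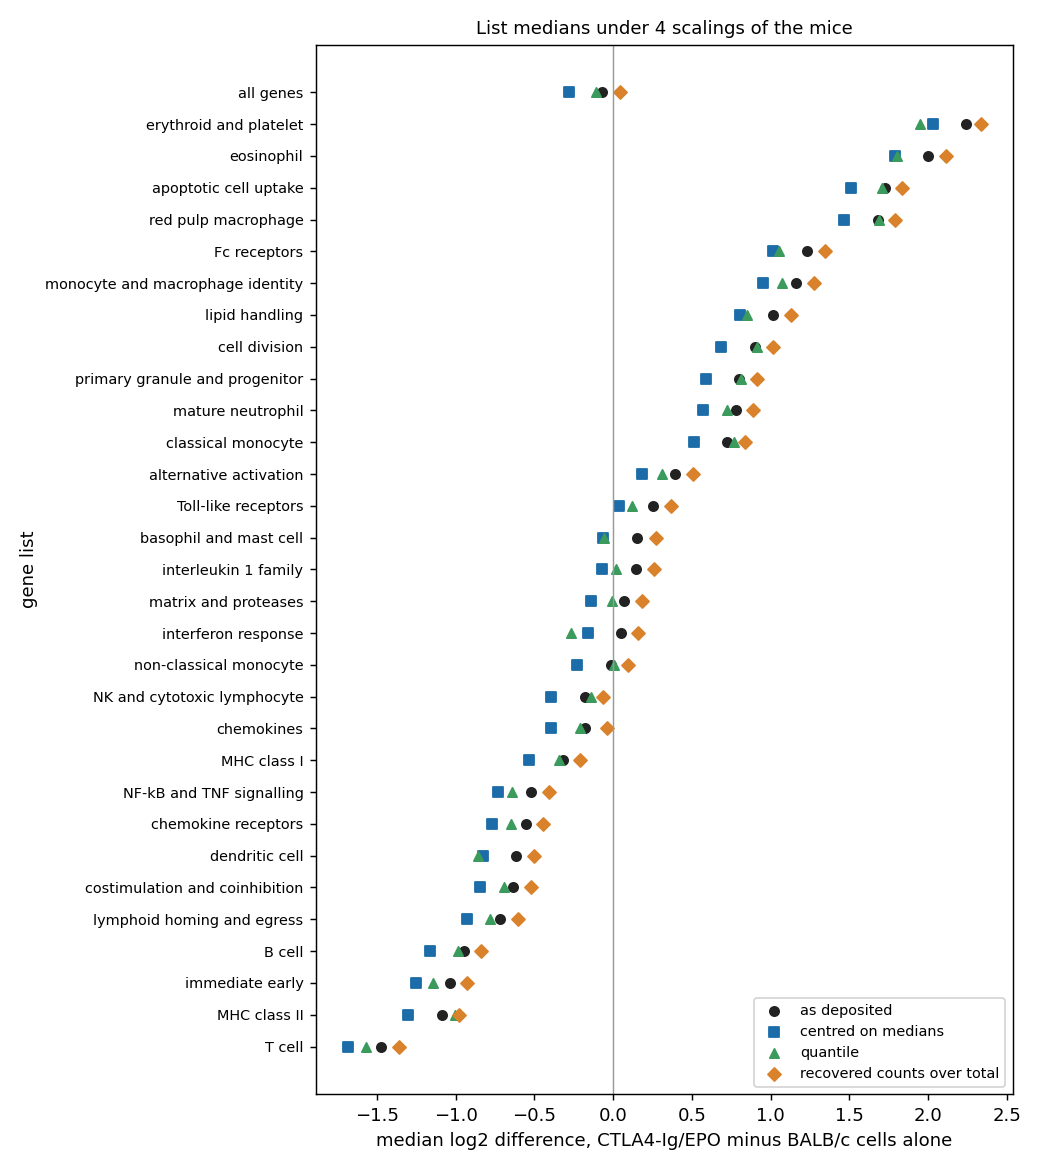
Median log2 difference between CTLA4-Ig/EPO recipients and recipients of cells alone (x axis) of each gene list and of all genes (y axis) under 4 scalings of the mice. Lists at the top and bottom keep to the same side of 0 under all 4 scalings. Some lists near the middle, such as the interferon response (0.05 as deposited and -0.16 after centring), lie on either side of 0.

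Of the 44 genes changed by the combined treatment that were not called between CTLA4-Ig/EPO and CTLA4-Ig, 19 were higher and 25 lower. This choice favours genes whose CTLA4-Ig mean lies between those of cells alone and CTLA4-Ig/EPO, as it did in 43 of them. The order of the means given below thus follows largely from how the genes were chosen. *Cxcr3*, the receptor of interferon-induced chemokines on activated T cells, measured 6.68, 7.14, 7.16 and 6.88 with cells alone, 5.99, 6.17, 6.44 and 6.30 with CTLA4-Ig, and 6.27, 5.65, 5.64 and 5.73 with CTLA4-Ig/EPO. The difference between the first and the last was -1.14 (standard error 0.17, limma adjusted *P* value 6.24e-05), that between CTLA4-Ig and cells alone was -0.74 (adjusted *P* value 0.25), and that between CTLA4-Ig/EPO and CTLA4-Ig was -0.40 (adjusted *P* value 0.0668). *Cd14* had means of 9.03, 8.32 and 8.25 in the same order of groups, and *Ccl22* of 6.16, 5.45 and 5.17.

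*Il10* (4.67, 3.91 and 3.38), *Pdcd1* (4.28, 3.34 and 2.65), *Ccr4* and *Ccl19* belong here as well, all at low counts, and the call of *Ccl19* (-1.15) was lost in 6 of the 8 leave-one-mouse-out fits, with an adjusted *P* value of up to 0.123. Among the rises of this kind, *Itgam* had means of 8.85, 9.22 and 9.56, and *Cxcr2* of 5.70, 6.39 and 6.69, where the CTLA4-Ig mice ranged from 5.85 to 7.32. *Aoah*, which inactivates lipopolysaccharide, rose by 0.92, and *Nrip3*, *Mmp10* and *Fgf10*, with at most 16 counts in any treated mouse, lost their calls in 5, 4 and 5 of the 8 leave-one-mouse-out fits, with adjusted *P* values of up to 0.127, 0.144 and 0.12 in limma. Since the 3 contrasts share mice, a gene called in one and not in another is not shown to differ between them, and which drug accounts for these values cannot be told apart without a group given EPO alone.

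**Figure D5:**
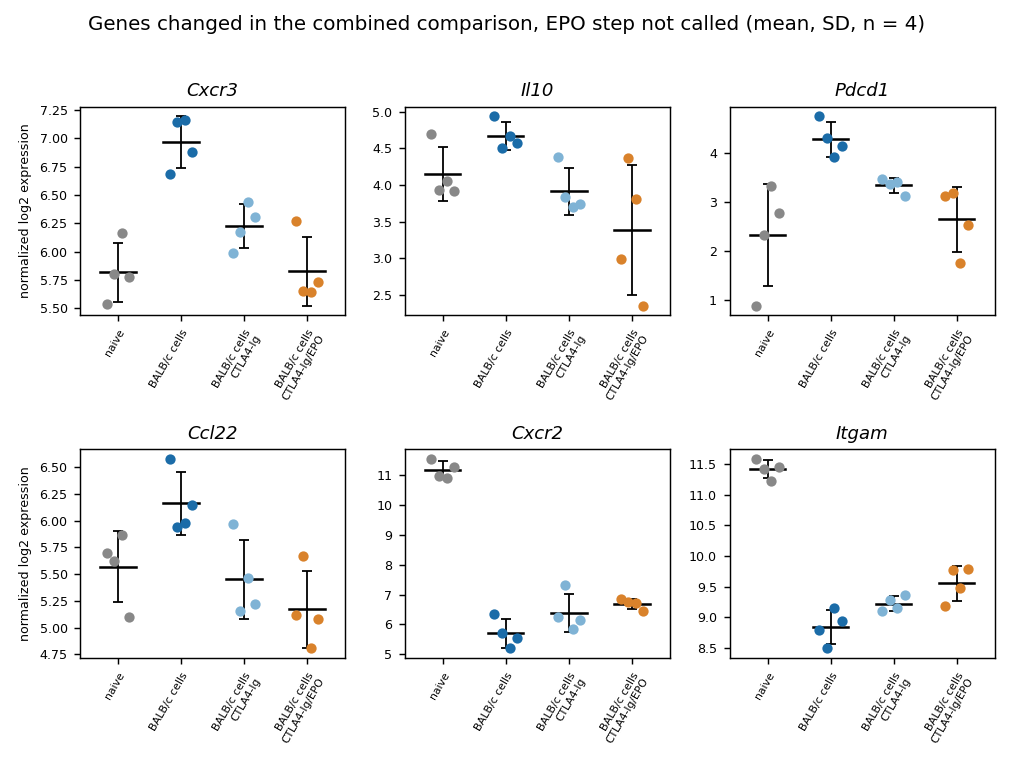
Normalized log2 expression (y axis) in each of the 16 mice (dots) by group (x axis), with mean and SD (n = 4), for 6 genes that differed between CTLA4-Ig/EPO and cells alone but were not called between CTLA4-Ig/EPO and CTLA4-Ig. *Cxcr3* falls from a mean of 6.97 with cells alone to 6.22 with CTLA4-Ig and 5.82 with CTLA4-Ig/EPO, and *Itgam* is 8.85, 9.22 and 9.56 in the same order.

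Each of the 11 genes that the study's text singles out for EPO differed in the present comparison, 6 higher (*Retnla*, *Chil3*, *Mertk*, *Mrc1*, *Cd163* and *Clec5a*) and 5 lower (*Ccr7*, *Tnfaip3*, *Traf1*, *Cd80* and *Il12a*). That list was chosen on mice shared with this comparison and is not independent evidence of its direction. *Clec5a*, a myeloid activating receptor, rose by 1.63, and the low *Il12a*, a subunit of interleukin 12, fell by 1.02. Of the abundant genes, 4 that did not pass the test are given by their values. *Laptm5*, a lysosomal protein of leukocytes, measured 12.40, 12.48, 12.48 and 12.51 in treated mice and 12.47, 12.53, 12.55 and 12.54 in controls, a difference of -0.05 (standard error 0.07, limma adjusted *P* value 0.557), although after centring it was lower by 0.27 and called (limma adjusted *P* value 0.00923). *S100a4* differed by -0.04 (standard error 0.16), *S100a11* by -0.39 (standard error 0.16, limma adjusted *P* value 0.0573, and 0.0341 without treated mouse 2) and *Crip1* by 0.20 (standard error 0.09), with the treated mice all above the controls.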

How the data were processed

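CD11b+ cells from spleens of 16 B6 mice (4 in each of 4 groups) were measured on a NanoString nCounter myeloid panel of 734 genes. The deposited values are log2 expression values that the authors normalized with limma, per the study's methods. The normalization factor, background treatment and housekeeping genes are not given in the sources used here, and 0 of 30 widely used housekeeping genes searched for were among the 734 genes of the table used here. Within each mouse the values are log2 of whole counts times 1 factor (100% whole within 0.001), from 0.56 to 0.76 with CTLA4-Ig/EPO and 0.63 to 0.76 with cells alone. Group membership came from titles and treatment fields.

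Group means of all 4 groups were fitted with limma 3.58.1 (R 4.3.3) to the deposited log2 values of the 16 mice, without a filter, and the contrast CTLA4-Ig/EPO minus cells alone was adjusted over 734 genes by the Benjamini-Hochberg method. Called genes had an adjusted *P* value below 0.05. The alternatives were other samples, moderation, weights, scalings, filters, pairing and control assignment. Summed levels add 2 to the power of each log2 value. Figures were drawn with matplotlib 3.10.9, and tables were made with Python 3.11.15, pandas 2.3.3 and numpy 2.4.6.

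The comparison, gene lists and tests were chosen with earlier results of these data known. Genes were named as the 10 largest rises and falls without overlap, up to 4 leading members of each list in each direction with members that define it, 5 in each direction not called between CTLA4-Ig/EPO and CTLA4-Ig, 5 abundant genes that did not pass, and the 5 most counted. A further rule asked for the genes of the study's heatmap, and the 11 genes its text names were used in their place. Other list members were named after their values were seen. Of the panel's symbols, 724 matched RefSeq directly, 9 by synonym and 1 did not. Promoter sequences are those of RefSeq (GRCm38.p6). Some items that the naming rule selects are not reported here.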

Additional observations from a re-analysis of the deposited data

Results flagged for a closer look

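In 15 of the 368 groups of 4 values examined for the 184 named genes, 1 mouse stood apart from the other 3 of its group by Dixon's criterion, and chance alone marks about 1 in 20 groups. Among mice given BALB/c spleen cells alone, mouse 1 was high for *Mpo* (8.74, the next 7.62) and *Isg15* (7.18, the next 6.56) and low for *H2-DMa* (10.62, the next 10.75) and *Laptm5* (12.47, the next 12.53). Mouse 3 was low for *Ccl19* (2.51). Mouse 4 was high for *Ier3* (7.71) and low for *Ly6c1* (8.74) and *Tnfsf4* (3.42). Among recipients of CTLA4-Ig/EPO, mouse 1 was high for *Cxcr3* (6.27, the next 5.73) and low for *Vsir* (10.65, the next 10.88). Mouse 2 was low for *Ctsl* (6.62), and mouse 4 for *Fcgr3* (10.09). Mouse 3 was high for *Batf3* (6.74) and *Tspan8* (7.05) and low for *Vegfa* (5.75). The calls of *Mpo*, *Isg15*, *H2-DMa*, *Cxcr3*, *Vsir*, *Ctsl*, *Fcgr3*, *Tspan8*, *Tnfsf4* and *Vegfa* held in each of the 8 leave-one-mouse-out fits.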

How the results depend on the processing

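The combined treatment changed between 341 and 410 genes in limma under every adjusted setting that kept the groups, against 371 as reported. These were the 8 mice alone (360), the 12 mice without naive animals (377), trended and robust moderation (366), array weights (398), centring (410), quantile normalization (391), counts over their totals (341) and removal of the lowest 25% of genes (367 of 550). Limma at an unadjusted threshold of 0.05 gave 407 genes, 181 higher and 226 lower. The t-test that the methods give for other comparisons of 2 groups gave 405 genes unadjusted and 356 after Benjamini-Hochberg adjustment. Leaving out each mouse in turn gave 343 to 371 genes, with 150 to 170 higher, 180 to 202 lower and 253 to 282 changed at least 1.5-fold. Genes without overlap then numbered 366 to 393, against 354 with all mice. That count cannot fall when a mouse is left out, so it is no check of the result. No label ties the replicate numbers to a shared litter or day, and over all genes same-numbered mice had deviations that correlated at -0.12 to 0.11 (1 of 4 closest to its own number), so the numbers were not used as pairs. The values of *H2-Eb1* did separate by number, and its difference with the block was -1.15 (limma adjusted *P* value 1.11e-05). A replicate block gave 394 genes, 176 higher and 218 lower, of which 367 were shared. If the control mice were those that the protocol's letter codes name, which are the naive mice by title, 520 genes would be called, 67 higher, 453 lower and 440 at least 1.5-fold, with a median difference of -0.74. The mice titled as given cells alone differed from the CTLA4-Ig mice in 0 of 734 genes by limma's adjusted *P* value, and in 70 without adjustment. A setting chosen after the data were seen recomputed each gene against those mice. Its log2 differences that turned below 0 were *Alox15* -0.14, *Aoah* -0.59, *Batf3* -1.33, *Camp* -1.99, *Ccr2* -2.01, *Chil3* -1.15, *Chil4* -1.26, *Clec5a* -2.01, *Cma1* -0.93, *Crip1* -0.98, *Ctsg* -0.16, *Ctss* -0.51, *Cx3cr1* -0.92, *Cxcr2* -4.48, *Ear6* -0.44, *Elane* -0.84, *Fcer1a* -0.93, *Fcgr2b* -0.55, *Fcgr3* -0.74, *Fgf10* -0.80, *Fn1* -1.17, *Fpr1* -0.74, *Gata1* -0.29, *Il1rl1* -0.0211, *Irf7* -1.12, *Itgam* -1.86, *Ly6g* -2.98, *Mmp10* -1.38, *Mmp13* -0.36, *Mpo* -0.21, *Ms4a2* -0.44, *Nrip3* -0.74, *Pros1* -0.57, *S100a8* -2.87, *S100a9* -2.84, *Siglecf* -2.58, *Stab1* -1.10, *Tgfb1* -0.44, *Tlr13* -1.43, *Tlr2* -2.06, *Tlr4* -0.0817, *Tlr8* -0.57, *Tnfrsf1b* -0.92 and *Vsir* -1.11, and those that turned above 0 were *Btla* 0.47, *Ccr6* 0.14, *Ccr7* 0.14, *Cd36* 0.43, *Cd40lg* 0.99, *Cd86* 0.0544, *Clec9a* 0.77, *Cxcr3* 0.00634, *Cxcr5* 0.93, *Fcer2a* 0.77, *H2-DMb2* 0.40, *H2-Ob* 0.24, *Icos* 0.0853, *Icosl* 0.17, *Kit* 0.0300, *Ms4a1* 0.64, *Pdcd1* 0.31, *S1pr1* 0.0249 and *Xcr1* 0.43. With array weights, the sign turned for *Batf3* -0.0161. After centring, the sign turned for *Batf3* -0.18, *Cma1* -0.0904, *Crip1* -0.0181, *Fcgr2b* -0.0300 and *Stab1* -0.0750. After quantile normalization, the sign turned for *Batf3* -0.15, *Cma1* -0.0560, *Laptm5* 0.0299 and *S100a4* 0.0261. With counts over their totals, the sign turned for *Cd86* 0.0268, *Laptm5* 0.0581, *Nkg7* 0.0532, *S100a4* 0.0692 and *Xcr1* 0.00241. Leaving out 1 mouse turned the sign in some fits for genes that had not passed, with ranges for *Batf3* from -0.0691 to 0.11, *Nkg7* from -0.28 to 0.0974, *S100a4* from -0.15 to 0.0723 and *Stab1* from -0.13 to 0.30. Of 3300 values for 184 named genes over all settings, 3077 kept their sign and side of the threshold, 90 turned their sign, 100 lost the call and 33 gained it. Positive controls and blanks were not used here, so the basis of the scaling factor and a detection limit are unknown. Low genes such as *Pdcd1*, *Il10*, *Ccl19*, *Fgf10* and *Mmp10* rest on few counts. With 4 mice a group, a difference that missed the threshold is not shown to be absent.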

Other observations

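The class II gene *H2-Eb1* separated the mice by number within each group given BALB/c spleen cells. With CTLA4-Ig/EPO, mice 1 and 2 had log2 values of 11.76 and 11.69 and mice 3 and 4 had 11.99 and 12.05. With CTLA4-Ig the values were 12.83 and 12.79 against 13.44 and 13.37, and with cells alone 12.71 and 12.84 against 13.23 and 13.30. The I-A alpha chain gene *H2-Aa* had the opposite order with CTLA4-Ig/EPO (14.52 and 14.41 against 14.03 and 14.11) and with cells alone (15.29 and 15.33 against 15.13 and 15.16), but not with CTLA4-Ig (15.17 and 15.13 against 15.21 and 14.96). Among the mice given CTLA4-Ig/EPO, *Tnfaip3*, *Cd274*, *Ms4a1* and *H2-Ab1* were also higher in mice 1 and 2 than in mice 3 and 4. *Siglec1* was lower in mice 1 and 2, and other genes, such as *Irf4* and *Lpl*, did not separate in this way. These orders were noticed in the values and were not tested.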
